A study of Arabidopsis thaliana with 16 samples.

Results

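The comparison set 4 leaf arrays labelled amiNaa15 against 4 leaf arrays of the watered wild type, which are 8 of the 16 arrays of the series, and all 27827 genes on the array were members. The arrays were chosen by their titles alone, and no measured value entered the choice. Plants of all 4 groups were *Arabidopsis thaliana* ecotype Col-0. The amiNaa15 plants stably expressed an artificial microRNA against *NAA15* from the CaMV35S promoter, and the study names a single transgenic line for these arrays. The amiNaa10 plants carried the corresponding artificial microRNA against *NAA10*. Both lines and the wild type control received regular water, and only a further wild type group went through 10 days of drought. According to the labels the plants grew on soil for 6 weeks in short days (8 h light), while the methods give slightly different growth times. The labels call the arrays of a group biological replicates and do not say how many plants each one held, so the p-values below measure the spread between these arrays.

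NatA is the acetyltransferase complex that transfers an acetyl group to the N terminus of many nascent proteins at the ribosome, usually after the first methionine has been removed. NAA10 is its catalytic subunit. NAA15 is the auxiliary subunit that holds the complex at the ribosome. The comparison asks which leaf transcripts differ when NAA15 is targeted in plants that have enough water. An artificial microRNA lowers its target by guiding cleavage of the transcript, so the targeted gene itself serves as a check of the labels.

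The targeted gene went against the label on 2 of the 4 arrays. *NAA15* (AT1G80410) had log2 signals of 9.68, 9.54, 7.97 and 7.80 on the arrays labelled amiNaa15 (replicates 1 to 4), against 9.10, 9.20, 9.00 and 9.12 on the wild type control arrays. Replicates 1 and 2 lay above all 4 control arrays, and replicates 3 and 4 lay more than 1 log2 unit below the lowest of them. *NAA10* (AT5G13780) showed the opposite pattern, with 5.16, 5.06, 6.89 and 6.86 on the arrays labelled amiNaa15 and 6.63, 6.59, 6.88 and 6.58 on the control. The amiNaa10 arrays had *NAA10* signals of 5.16, 5.28, 4.92 and 5.01 and *NAA15* signals of 9.55, 9.87, 9.53 and 9.46. In both targeted genes replicates 1 and 2 labelled amiNaa15 thus lay within the range of the amiNaa10 arrays, and replicates 3 and 4 lay outside it. Over all 4 arrays neither gene differed beyond the spread. The mean difference was -0.36 for *NAA15* (two-sided exact permutation p = 0.429) and -0.68 for *NAA10* (p = 0.4), where 0.0286 is the smallest p that 4 against 4 arrays allow. Because the labels alone define the groups, every array was kept under its title, and the lists and the leading genes are also given without replicates 1 and 2.

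**Figure D1:**
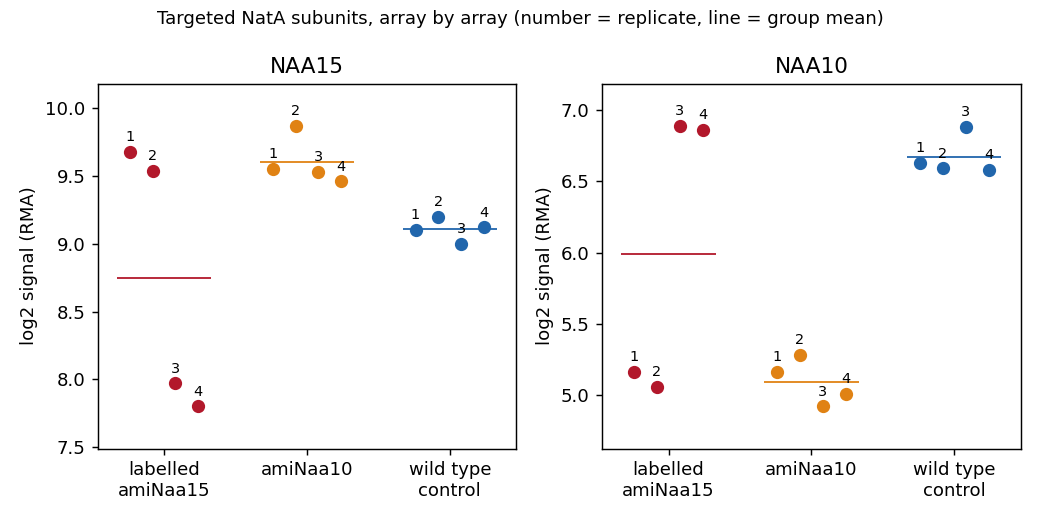
Log2 signal (RMA) of *NAA15* (left) and *NAA10* (right) on the arrays labelled amiNaa15, amiNaa10 and wild type control. Each point is 1 array with its replicate number and each line is a group mean. Replicates 1 and 2 labelled amiNaa15 have *NAA10* at 5.16 and 5.06, whereas replicates 3 and 4 have *NAA15* at 7.97 and 7.80.

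Without replicates 1 and 2 the mean differences were -1.22 log2 units for *NAA15* and 0.21 for *NAA10*, and without replicates 3 and 4 they were 0.51 and -1.56. Because the signals of these 2 genes set the arrays apart, these values are a description and carry no test. Of the other 7 measured Nat subunits, 1 was called, against 4.67% of all genes. AT1G03150 had 8.72, 8.75, 8.38 and 8.63 on the arrays labelled amiNaa15, against 8.01, 8.13, 7.93 and 7.93 on the control. It was higher by 0.62 (limma adjusted p = 0.00748), but by 0.58 without replicate 2, which is under 1.5-fold.

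A gene was called when limma's adjusted p was below 0.05 and the change exceeded 1.5-fold. By this rule 1299 genes, or 4.67% of those tested, differed on the arrays labelled amiNaa15. Of these, 717 (2.58%) were lower and 582 (2.09%) were higher, with median log2 changes of -0.87 and 0.82, against 0.01 over all genes. More than 2-fold differences were found for 440 called genes, and more than 4-fold for 52. A called gene counted as shared when its 4 signals did not overlap the 4 control signals. That held for 1115 genes, 85.8% of the called ones, of which 634 (2.28% of all genes) were lower and 481 (1.73%) were higher. In whole leaves, fewer cells of a type and less RNA per cell cannot be told apart for any of them. With or without a call, 7.07% of all genes lay entirely below the control and 7.96% entirely above it. A call favours separated groups, so the 85.8% follows in part from the choice of called genes. An unadjusted p below 0.05 was found for 6627 of the 27827 genes, and list counts at that level below are to be read against this number. For the fits with arrays left out the corresponding number is not given here.

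The sharing was uneven in size. The called lower genes had median log2 differences from the control mean of -1.03, -1.06, -0.62 and -0.84 on replicates 1 to 4, and the called higher genes had 0.95, 0.95, 0.59 and 0.84. Replicate 3 was closest to the control on both sides. There 90.7% of the called lower genes were below every control signal and 85.4% of the called higher genes were above every one. On the other 3 arrays these shares were between 98.5% and 99.8%, with the called lower genes at 98.7% or more. The genes were called on these same arrays, so high shares follow in part from that choice. Set against 3 control arrays at a time, replicate 3 had 404 genes more than 1.5-fold above and 370 more than 1.5-fold below their range, and single control arrays had 206 to 364 above and 220 to 291 below. Replicates 1, 2 and 4 had 1055, 969 and 530 genes above and 1268, 1157 and 873 below.

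**Figure D2:**
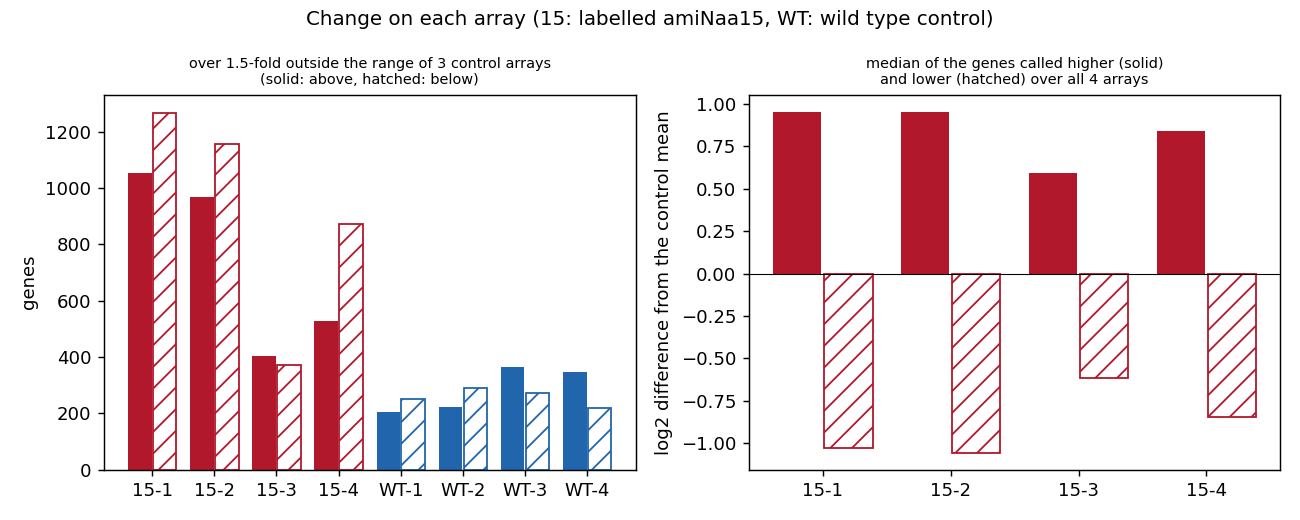
Left, number of genes more than 1.5-fold above (solid) or below (hatched) the range of 3 control arrays, for each array labelled amiNaa15 (15) and each wild type control array (WT); the counts are means over the possible sets of 3. Right, median log2 difference from the control mean of the called higher (solid) and called lower (hatched) genes on each array labelled amiNaa15; replicate 3 has the smallest medians, 0.59 and -0.62.

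The count depended on which arrays entered. Without replicates 1 and 2, 49 genes were lower (0.176%) and 59 higher (0.212%). Without replicates 3 and 4, 1058 genes were lower (3.80%) and 991 higher (3.56%). Both reduced fits and the full one called the same 92 genes, 43 lower and 49 higher. No gene called in the full fit was called in opposite directions by the reduced fits. Opposite changes partly cancel in the full fit, so this says little about the other genes. *NAA15* itself changed by -1.22 without replicates 1 and 2 and by 0.51 without replicates 3 and 4. The fit without replicate 1 called 767 genes and the one without replicate 2 called 663. Leaving out replicate 3 gave 1944, and leaving out wild type control replicate 1 gave 792. Of 92 called genes other than the targets that are named here, 61 were called in each of the 8 fits that left out 1 array. The other 31 lost the call in at least 1 of them, with adjusted p up to 0.155. Leaving out replicate 2 ended 30 of these calls, replicate 1 ended 23, and control replicates 1 and 3 ended 20 each. Replicate 4 ended 14, control replicates 2 and 4 ended 9 each, and replicate 3 ended 1. The named genes were partly picked for wide gaps between these same arrays. Their counts therefore describe the named genes and not the stability of called genes in general.

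Several of the widely separated lower genes act in the cell wall, led by *XTH31*. *XTH31*, a xyloglucan endotransglucosylase/hydrolase that remodels wall xyloglucan, had 5.02, 5.57, 6.76 and 5.11 on the arrays labelled amiNaa15, against 9.04, 8.97, 8.33 and 8.40 on the control. All 4 signals were at least 1.57 log2 units below the lowest control array, and the mean change was -3.07 ± 0.41 (SE, limma adjusted p = 0.000853). *XTH32*, of the same family, had 7.20, 6.58, 7.52 and 7.08, against 8.80, 8.57, 8.56 and 8.40. *GH9B5*, a family 9 glycosyl hydrolase, was lower by 1.74, and *FLA15*, a fasciclin-like arabinogalactan protein, was lower by 1.80 (limma adjusted p = 0.000359 and 0.000626). Both had gaps of more than 1 log2 unit between the nearest arrays of the groups, and all 4 genes kept the call without replicates 1 and 2. These 4 genes were picked for wide gaps on all 4 arrays, so the kept calls follow in part from that choice.

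Regulators and metabolic enzymes made up most of the other widely separated lower genes. *TRY*, a small MYB protein that represses trichome formation, had 4.88, 4.62, 6.12 and 5.22 on the arrays labelled amiNaa15 and 7.54, 7.60, 7.46 and 7.14 on the control. *BBX30*, a B-box protein, had 4.00, 3.36, 3.96 and 3.54, against 5.73, 5.29, 5.19 and 5.31. *MPK19*, a MAP kinase, had 7.44, 7.41, 7.74 and 7.50, against 9.04, 8.94, 8.89 and 8.74. Replicate 3 was the highest of the 4 arrays in *TRY* and *MPK19* and replicate 1 in *BBX30*. The 3 calls held without replicates 1 and 2, which again follows in part from the choice by gap. The cytochrome P450 gene *CYP89A2* was lower by 1.53 and the squalene epoxidase-like *SQP1* by 1.62 (limma adjusted p = 0.000236 and 0.00304). *NdhT*, a subunit of the chloroplast NAD(P)H dehydrogenase-like complex, was lower by 1.32 (limma adjusted p = 0.00329). *SQP1* and *NdhT* had gaps of 0.87 and 0.90 log2 units, and without replicates 1 and 2 their adjusted p-values were 0.095 and 0.097.

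Among genes with a symbol, the widely separated higher genes included dormancy, auxin and dark-inducible genes. *DYL1*, also known as *DRM1*, codes for a dormancy-associated protein and had 6.49, 6.82, 6.52 and 6.70 on the arrays labelled amiNaa15, against 4.91, 4.92, 5.13 and 4.51 on the control. Its 4 signals lay close together and at least 1.36 log2 units above the highest control array, with a mean change of 1.77 ± 0.14 (SE, limma adjusted p = 2.97e-05). *GH3.5*, an enzyme that joins auxin to amino acids, had 8.65, 8.79, 8.28 and 8.83, against 6.93, 6.98, 6.90 and 6.54. *IAA29*, an Aux/IAA repressor of auxin responses, had 6.47, 6.57, 5.87 and 6.38, against 4.50, 4.73, 3.75 and 3.92. *DIN1*, also named *SEN1*, is induced in the dark and in ageing leaves and had 10.11, 10.62, 9.14 and 9.89, against 7.09, 6.97, 8.02 and 6.95. Replicate 3 had the smallest increase in each of the last 3 genes, and all 4 genes kept the call without replicates 1 and 2. As for the lower genes, the choice by gap favours such kept calls.

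The remaining widely separated higher genes held glycosidases and stress-related proteins. *BXL1*, a xylosidase and arabinosidase of the wall, had 11.43, 11.33, 10.37 and 10.97 on the arrays labelled amiNaa15 and 9.21, 9.08, 9.43 and 8.98 on the control. The beta-galactosidase gene *BGAL4* was higher by 2.35 and the beta-glucosidase gene *BGLU17* by 1.87, and both lost the call without replicates 1 and 2 (adjusted p = 0.084 and 0.087). *DJ1A*, a DJ-1 family protein, had 8.73, 8.82, 8.78 and 8.99, against 7.50, 7.66, 7.84 and 7.41, and *MEE14* had 10.36, 10.56, 10.27 and 10.43, against 8.92, 9.08, 9.42 and 8.82. In both genes the 4 arrays labelled amiNaa15 lay close together (SD 0.11 and 0.12). *OASA2*, an isoform of the enzyme that makes cysteine from O-acetylserine, was higher by 1.61, and the salt-induced serine-rich protein gene *SIS* by 1.74 (limma adjusted p = 0.000982 and 0.00228). The glutathione transferase gene *GSTF3* was higher by 1.92 (limma adjusted p = 0.00698), with 7.92, 7.72, 6.94 and 7.11 on the arrays labelled amiNaa15, against 4.87, 5.02, 6.08 and 6.03 on the control, and it lost the call without replicates 1 and 2 (adjusted p = 0.164).

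**Figure D3:**
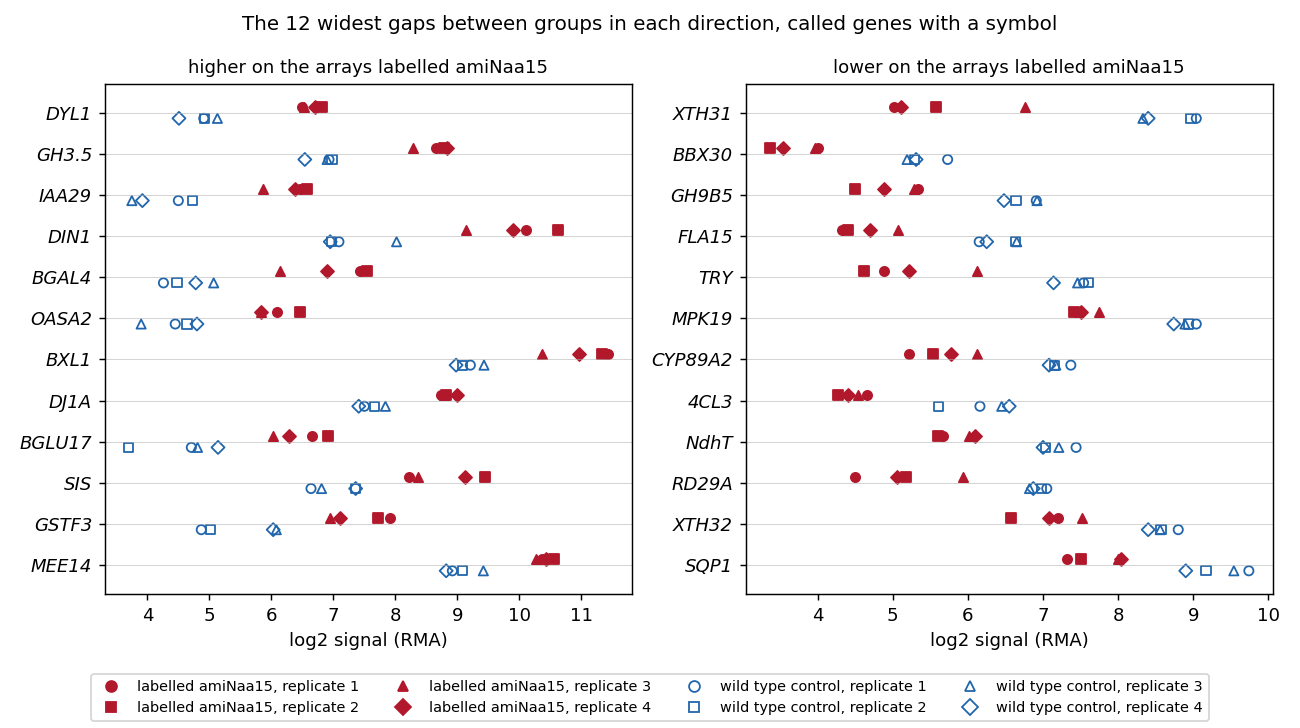
Log2 signal (RMA) of the 12 called genes with the widest gap between the groups in each direction, among genes with a symbol; filled symbols are the arrays labelled amiNaa15, open symbols the wild type control, and the shape gives the replicate. No filled symbol crosses the open ones in any gene; the widest gaps are 1.36 log2 units (*DYL1*, higher) and 1.57 (*XTH31*, lower).

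A few further genes were singled out after their values had been seen. AT1G02620 had the widest gap of all, with 7.32, 7.58, 6.29 and 7.00 on the arrays labelled amiNaa15 and 3.88, 4.42, 4.40 and 4.59 on the control. *DRM2*, a relative of *DRM1*, had 9.13, 9.13, 8.46 and 8.88, against 6.46, 6.59, 7.17 and 6.66. *AKINBETA1*, a beta subunit of the SnRK1 kinase that responds to low energy, was higher 2.46-fold, and *GDH1*, which codes for glutamate dehydrogenase, 2.18-fold (limma adjusted p = 0.000812 and 0.000982). *YUC9*, an enzyme of auxin synthesis, was higher by 1.33 at a low signal (4.43 ± 0.32 on the arrays labelled amiNaa15, 3.10 ± 0.39 on the control, SD, n = 4 each). *ACS6*, which makes the ethylene precursor, had 7.08, 7.24, 7.08 and 7.72, against 9.67, 9.35, 8.49 and 9.53, and *SIP1*, a raffinose synthase gene, was lower by 1.17. All 7 genes kept the call without replicates 1 and 2, but they were chosen after their values had been seen, so this is no independent test.

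Flavonoids are phenylalanine-derived pigments and sunscreens of leaves, and their enzymes are switched on together by MYB and bHLH factors. All 14 measured enzymes of the flavonoid and anthocyanin list had lower means on the arrays labelled amiNaa15, and 10 were called, against 2.58% of all genes. The median change of the list was -2.18. Among the early enzymes, *TT5* (chalcone isomerase) had 5.21, 5.52, 6.58 and 5.67 on the arrays labelled amiNaa15, against 7.41, 6.97, 7.94 and 7.81 on the control. *F3H*, flavanone 3-hydroxylase, had 5.73, 5.77, 7.96 and 6.79, against 8.98, 7.83, 9.47 and 8.97. *TT7*, flavonoid 3'-hydroxylase, had 4.44, 5.17, 7.88 and 5.79, against 8.42, 7.83, 9.57 and 8.93. In *TT5* the groups did not overlap, whereas replicate 3 lay inside the control range in *F3H* and *TT7*. The chalcone isomerase-like gene *CHIL* was lower by 2.18 and also overlapped the control. *TT7* alone of these 4 lost its call in the fit without replicate 2 (adjusted p = 0.0503).

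Late anthocyanin genes also had lower means. *TT19*, a glutathione transferase needed for anthocyanin accumulation, had 4.04, 4.80, 8.05 and 5.93 on the arrays labelled amiNaa15, against 8.92, 7.48, 9.07 and 9.02 on the control. Its mean change of -2.92 ± 0.86 (SE) was just past the threshold (limma adjusted p = 0.0493) and was called in 2 of the 8 fits that left out 1 array, with adjusted p up to 0.155. AT4G14090, also on the list, had 5.01, 5.56, 7.63 and 5.99, against 9.17, 8.04, 9.35 and 9.26, and did not overlap. *DFR*, *LDOX*, *UF3GT* and *TT4* had mean differences of -2.18, -2.80, -2.55 and -1.79 and were not called (limma adjusted p = 0.182, 0.0608, 0.0557 and 0.0515). In each of these 4 genes replicates 1 and 2 had the lowest signals and replicate 3 overlapped the control.

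Flavonol and flavonoid glycosylation genes had smaller mean changes. *UGT78D2* and *UGT78D1*, flavonoid glucosyl- and rhamnosyltransferases, were lower by 1.04 and 0.80, *OMT1*, a methyltransferase, by 0.79, and *FLS1*, flavonol synthase, by 0.59. *FLS1* was called in 1 of the 8 fits that left out 1 array and *OMT1* in 4 (adjusted p up to 0.113 and 0.0805). The corresponding counts were 5 for *UGT78D1* and 6 for *UGT78D2* (up to 0.0683 and 0.0682). Of 11 regulators, *PAP1* and *TT8* were called lower, against 2.58% of all genes. *PAP1*, a MYB activator of anthocyanin genes, had 4.76, 5.74, 7.14 and 5.75, against 8.49, 7.60, 8.56 and 8.04, and *TT8*, its bHLH partner, was lower by 2.47 and lost its call without replicate 1 or replicate 2 (adjusted p up to 0.0556). The flavonol regulator *MYB12* differed by -0.20 at signals below 3 on all 8 arrays.

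Array by array, the median difference of the 14 enzymes from the control mean was -2.94, -2.95, -0.78 and -1.94. The 2 arrays with low *NAA10* thus had the lowest medians, followed by replicate 4. Only 5 of the 14 enzymes did not overlap the control, against 7.07% of all genes, and without replicates 1 and 2 limma called none, with 9 below an unadjusted p of 0.05 and a list median of -1.40.

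Phenylpropanoid enzymes supply the precursors of flavonoids, lignin and sinapate esters. Of 19 measured members 8 were lower, against 2.58% of all genes, and none was higher, with a list median of -0.48. At the entry, *PAL2* (phenylalanine ammonia-lyase) had 6.63, 6.01, 6.57 and 6.17 on the arrays labelled amiNaa15, against 7.49, 7.19, 8.23 and 8.04 on the control, and *PAL1* was lower by 1.51. *PAL3*, of the same family, was higher by 0.65 without passing the test (limma adjusted p = 0.122). *C4H* and *4CL1*, the next enzymes of the pathway, were lower by 0.74 and 0.68. *4CL3*, the ligase isoform of the flavonoid branch, had 4.66, 4.27, 4.54 and 4.40, against 6.16, 5.61, 6.45 and 6.55. In *4CL3* replicate 1 was nearest to the control, followed by replicate 3. Without replicates 1 and 2, *4CL3* and *PAL2* were the members called, against 0.176% of all genes called lower.

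Further down the pathway, *UGT84A2*, which glucosylates sinapate, was lower by 1.31 and the lignin gene *CAD4* by 0.64 (limma adjusted p = 0.00304 and 0.0134), and *OMT1* belongs to this list too. *SNG1*, which makes sinapoylmalate, differed like *PAL3* in the other direction, by 0.59, without passing the test (limma adjusted p = 0.0678). *C4H* was called in 3 of the 8 fits that left out 1 array and *CAD4* in 6 (adjusted p up to 0.0774 and 0.0551). The change of *4CL1* without replicate 2 was -0.57, which is under 1.5-fold.

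Sulfate is reduced in leaves by ATP sulfurylases, APS reductases and sulfite reductase, and APS kinases divert activated sulfate to glucosinolates. Of 13 genes of sulfate uptake and assimilation 4 were lower, against 2.58% of all genes, none was higher, and the list median was -0.33. The 3 APS reductases were all among them. *APR2* had 6.70, 6.45, 6.56 and 6.60 on the arrays labelled amiNaa15, against 7.46, 7.72, 7.30 and 7.23 on the control. *APR3* had 6.80, 6.91, 6.85 and 6.61, against 7.62, 8.23, 7.74 and 7.55. In these 2 genes the 4 arrays labelled amiNaa15 were close together, with replicate 3 between the others. *APR1* was lower by 1.00 and the APS kinase gene *APK1* by 1.12, with replicate 3 nearest to the control in both. The uptake gene *SULTR1;2* was the only member with a higher mean, by 0.67, and just missed the call (limma adjusted p = 0.0501). It had 5.72, 5.51, 4.59 and 4.93, against 4.41, 4.72, 4.42 and 4.54.

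Of 7 sulfur starvation markers 3 were lower, against 2.58% of all genes, none was higher, and the list median was -0.86. *SDI1*, which lowers glucosinolate synthesis when sulfur is short, had 4.76, 4.74, 5.78 and 4.63, against 6.02, 7.04, 6.84 and 6.17. *LSU2*, another sulfur-responsive gene, was lower by 0.86 and *GGCT2;1*, which breaks down glutathione, by 1.38. Without replicates 1 and 2 limma called no member of either sulfur list, while 6 and 4 members had an unadjusted p below 0.05 and *APR2* had an adjusted p of 0.057. *APR1*, *APK1* and *GGCT2;1* were called in 3, 4 and 4 of the 8 fits that left out 1 array (adjusted p up to 0.0676, 0.0605 and 0.0894).

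Glucosinolates are sulfur-rich defence compounds of the cabbage family. Among 16 genes of aliphatic glucosinolate synthesis 15 had lower means, 2 were called lower, against 2.58% of all genes, and the median was -0.53. The called members were *FMOGS-OX1*, which oxidizes the side chain, and AT2G31790, lower by 1.23 and 0.85. Both were called in 2 of the 8 fits that left out 1 array (adjusted p up to 0.128 and 0.0942). The 10 genes of indole glucosinolate and camalexin synthesis had a median of -0.25, or -0.40 without replicates 1 and 2. Only the regulator *MYB34* was called lower, against 2.58% of all genes. It had 5.56, 5.31, 6.87 and 4.77, against 6.65, 7.46, 8.25 and 6.91, so that replicate 3 overlapped the control and replicate 4 was lowest, and 3 of the 8 fits called it (adjusted p up to 0.0996). With replicates 1 and 2 left out limma called none of these genes, and 6 aliphatic and 2 indole members had an unadjusted p below 0.05.

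Dark-inducible and sugar starvation genes are raised when leaves run short of carbohydrate. Of 18 measured members 9 were higher, against 2.09% of all genes, 1 was lower and the list median was 0.79. *DIN10*, a raffinose synthase-like gene, had 8.96, 8.24, 6.57 and 7.95 on the arrays labelled amiNaa15, against 4.67, 5.79, 5.13 and 4.91 on the control. *DIN6*, asparagine synthetase, had 10.57, 10.55, 10.17 and 10.40, against 8.48, 8.71, 9.48 and 8.04. *TPS11*, of the trehalose phosphate synthase family, had 7.80, 7.67, 7.28 and 7.68, against 5.93, 6.78, 6.42 and 6.37. All 3 genes were separated from the control on every array, with replicate 3 the lowest of the 4.

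Enzymes of branched-chain amino acid breakdown belonged to the same list. *MCCA* had 8.54, 8.49, 8.13 and 8.33, against 7.70, 7.71, 7.56 and 7.38, *DIN4* was higher by 1.06 and *IVD* by 0.71. *TPS9* was higher 2.46-fold. *BT2*, a BTB protein that responds to sugar and nitrogen, had 8.93, 8.17, 6.11 and 6.85, against 4.54, 6.11, 5.03 and 4.26, with replicate 3 level with the highest control array. It was called in 3 of the 8 fits that left out 1 array (adjusted p up to 0.0922), and *IVD* in 7 (up to 0.0606). The exception was *DIN9*, a mannose phosphate isomerase gene, which was lower by 0.76 and called in 5 of those fits (up to 0.0591). In the fit without replicates 1 and 2, 3 members were called, namely *DIN1*, *DIN10* and *MCCA*, against 0.212% of all genes, and the list median was 0.60.

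Auxin acts through ARF activators and Aux/IAA repressors, and GH3 enzymes conjugate the hormone. Of 17 auxin signalling genes 5 were higher, against 2.09% of all genes, and 1 was lower, against 2.58%. The list median was 0.34, and 0.15 without replicates 1 and 2. Besides *IAA29* and *GH3.5*, *GH3.3* was higher, with 8.73, 8.36, 7.33 and 7.17 on the arrays labelled amiNaa15, against 5.97, 6.18, 6.41 and 5.62 on the control. *ARF19* had 8.34, 8.70, 8.53 and 8.42, against 7.78, 7.85, 7.81 and 7.66, and *IAA2* was higher by 0.79. *ARF7*, the relative of *ARF19*, differed by 0.15 (limma adjusted p = 0.457). *MYB77*, a MYB factor that works with *ARF7* in auxin responses, had 6.10, 6.17, 5.99 and 6.48, against 7.90, 7.86, 6.72 and 7.62. Replicate 3 was the lowest of the 4 there, while control replicate 3 was nearer to them than the other controls. Without replicates 1 and 2, *IAA29*, *GH3.5* and *ARF19* were called higher, against 0.212% of all genes, and *MYB77* missed the threshold (adjusted p = 0.083).

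**Figure D4:**
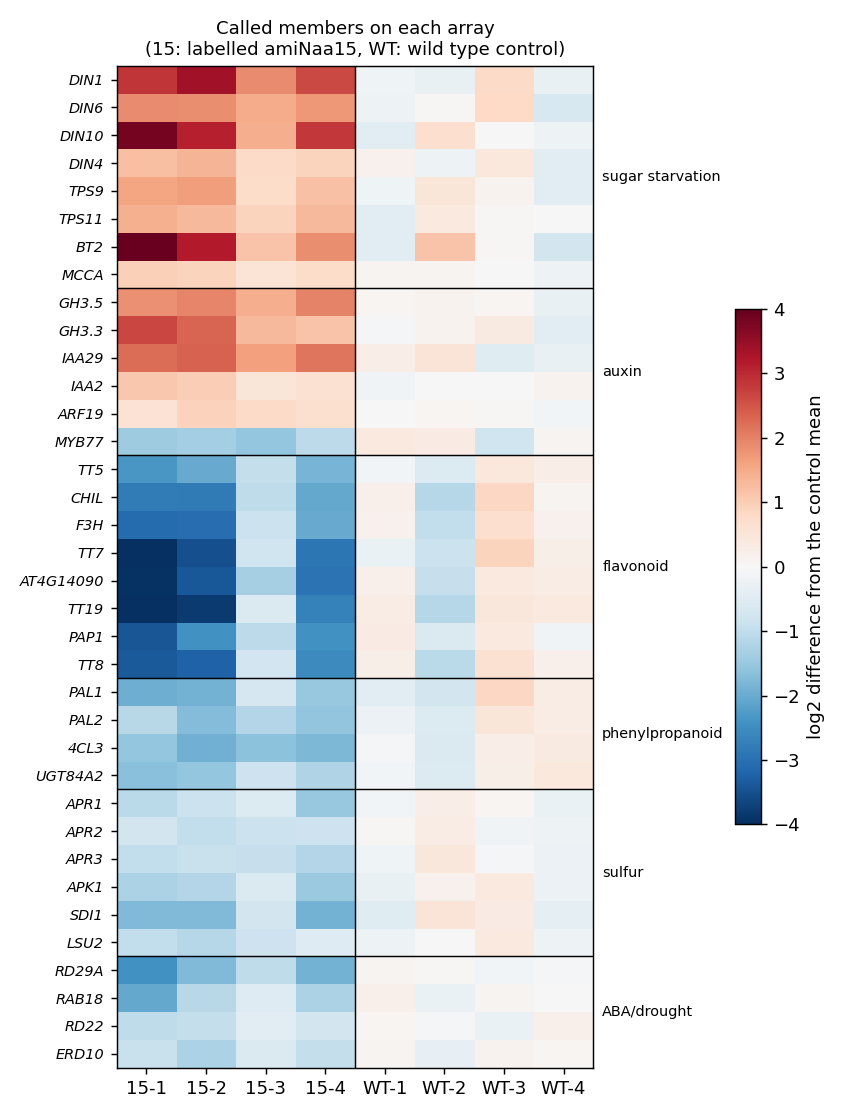
Log2 difference from the wild type control mean for called members of 6 gene groups (15, arrays labelled amiNaa15; WT, wild type control; numbers are replicates); red is higher and blue lower. The flavonoid genes are deepest on replicates 1 and 2 and palest on replicate 3, whereas *4CL3*, *APR3* and *MYB77* are similar on all 4 arrays.

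Abscisic acid (ABA) is the drought hormone; CYP707A enzymes break it down, PP2C phosphatases such as HAI1 restrain its signalling, and the RD29A, RAB18 and ERD10 proteins accumulate in dry or cold leaves. Of 25 measured genes 7 were lower, against 2.58% of all genes, none was higher and the median was -0.46. *RD29A* had 4.50, 5.17, 5.93 and 5.05 on the arrays labelled amiNaa15, against 7.05, 6.98, 6.82 and 6.87 on the control, and all 4 signals were at least 0.89 below the lowest control. For scale, wild type after drought had 8.88, 8.07, 8.44 and 7.54, above all control arrays. *RAB18* had 4.36, 5.28, 5.88 and 5.14, against 6.60, 6.12, 6.49 and 6.37. *ERD10* was lower by 0.93 and *RD22* by 0.78. Replicate 3 was the nearest to the control in each of these genes but remained below it.

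Among the ABA breakdown enzymes, *CYP707A3* had 6.22, 6.24, 6.61 and 7.11, against 8.06, 8.34, 7.03 and 8.09, and *CYP707A1* was lower by 0.91. *HAI1* was lower by 0.71. *LEA7*, a late embryogenesis abundant protein gene, had signals of 1.61 to 1.89 on the arrays labelled amiNaa15 and 1.22 to 1.70 on the control, which is near the bottom of the scale. Of the 8 fits that left out 1 array, *RAB18* was called in 1, *ERD10* in 2, *CYP707A1* in 3, *HAI1* in 6 and *CYP707A3* in 7 (adjusted p up to 0.131, 0.134, 0.109, 0.0628 and 0.0528), while *RD29A* and *RD22* were called in all. With replicates 1 and 2 left out limma called no member, 6 had an unadjusted p below 0.05, and *RD29A* differed by -1.44 (adjusted p = 0.15).

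Jasmonate is made from linolenic acid by lipoxygenases, AOS, AOC and OPR3, and acts through MYC2 and the JAZ repressors. All 12 synthesis genes had lower means with a median of -0.86, but limma called none. An unadjusted p below 0.05 was found for 5 of them, against 6627 of all 27827 genes. *AOS* had 8.86, 9.75, 10.57 and 9.31, against 10.31, 11.12, 11.20 and 10.71 (mean change -1.21, limma adjusted p = 0.106). Of 19 genes of signalling and output 18 had lower means, the median was -0.89, and *MYC2* alone was called lower, against 2.58% of all genes. It had 5.36, 5.34, 5.53 and 4.48, against 5.98, 6.13, 6.52 and 6.25, and was called in 1 of the 8 fits that left out 1 array (adjusted p up to 0.115). The storage protein gene *VSP1* ranged between 6.04 and 10.00 on the arrays labelled amiNaa15 and between 8.34 and 11.70 on the control. Its mean difference of -1.70 was within the spread of arrays taken as unpaired (limma adjusted p = 0.34). In *VSP1* and *AOS*, replicate 3 was the highest array of both groups. Each array labelled amiNaa15 lay below the control array of the same number in these genes. Whether the numbers pair the arrays in single genes was not tested. Array medians of the output list were -0.86, -0.84, -0.18 and -1.50, with replicate 4 lowest.

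None of 16 salicylate genes was called by limma, and 1 had an unadjusted p below 0.05, against 6627 of all 27827 genes. *PR1*, the usual marker of this defence pathway, had 9.09, 8.44, 5.36 and 7.19 on the arrays labelled amiNaa15 and 5.55, 6.99, 5.25 and 7.53 on the control. Only replicates 1 and 2 lay above the control range, and without them the difference was -0.055. The amiNaa10 arrays had *PR1* signals of 8.03 to 9.74.

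In the circadian clock, morning and evening genes repress one another over the day. Of 24 measured members 5 were higher, against 2.09% of all genes, and none was lower, with a median of 0.12. Of the 5, 3 were separated from the control on every array, while *PRR3* and *TOC1* overlapped it. *ELF3*, an evening complex gene, had 7.61, 7.74, 7.39 and 7.60 on the arrays labelled amiNaa15, against 6.67, 6.71, 6.84 and 6.51 on the control. *PRR3* had 4.33, 5.32, 5.36 and 5.29, against 3.94, 3.92, 4.52 and 3.75, and its relatives *PRR5* and *TOC1* were higher by 0.65 and 0.59. *GRP7*, an RNA-binding protein gene under clock control, had 9.75, 10.22, 10.41 and 10.07, against 9.38, 9.22, 9.09 and 9.42. Here replicate 3 was the highest array. Without replicates 1 and 2, *GRP7* and *PRR3* were called higher, against 0.212% of all genes. *PRR5* and *TOC1* were called in 2 and 4 of the 8 fits that left out 1 array (adjusted p up to 0.116 and 0.0813). The morning gene *CCA1* differed by -0.41 (limma adjusted p = 0.0883).

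Expansins loosen the cell wall and XTH enzymes cut and rejoin xyloglucan. Of 28 measured members 5 were lower, against 2.58% of all genes, and 3 were higher, against 2.09%, with a median of -0.14, or -0.02 without replicates 1 and 2. *XTH32*, described above, was not on this list and is not in its counts. The lower ones were *XTH31*, *XTH8* and 3 expansins, of which *EXPA5* had 6.38, 5.62, 6.17 and 6.03, against 7.04, 6.83, 6.97 and 6.94. *EXPA4*, *EXPA3* and *XTH8* were lower by 1.17, 0.94 and 0.74 and were called in 4, 4 and 1 of the 8 fits that left out 1 array (adjusted p up to 0.104, 0.0679 and 0.137). In the opposite direction *XTH25* had 8.58, 7.67, 6.22 and 6.75, against 4.08, 5.40, 5.36 and 5.35. *XTH27* and *XTH30* were higher by 0.67 and 0.78. All 8 called members of the list were separated from the control on every array. Without replicates 1 and 2 only *XTH31* was called lower, against 0.176% of all genes, and only *XTH27* higher, against 0.212%.

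**Figure D5:**
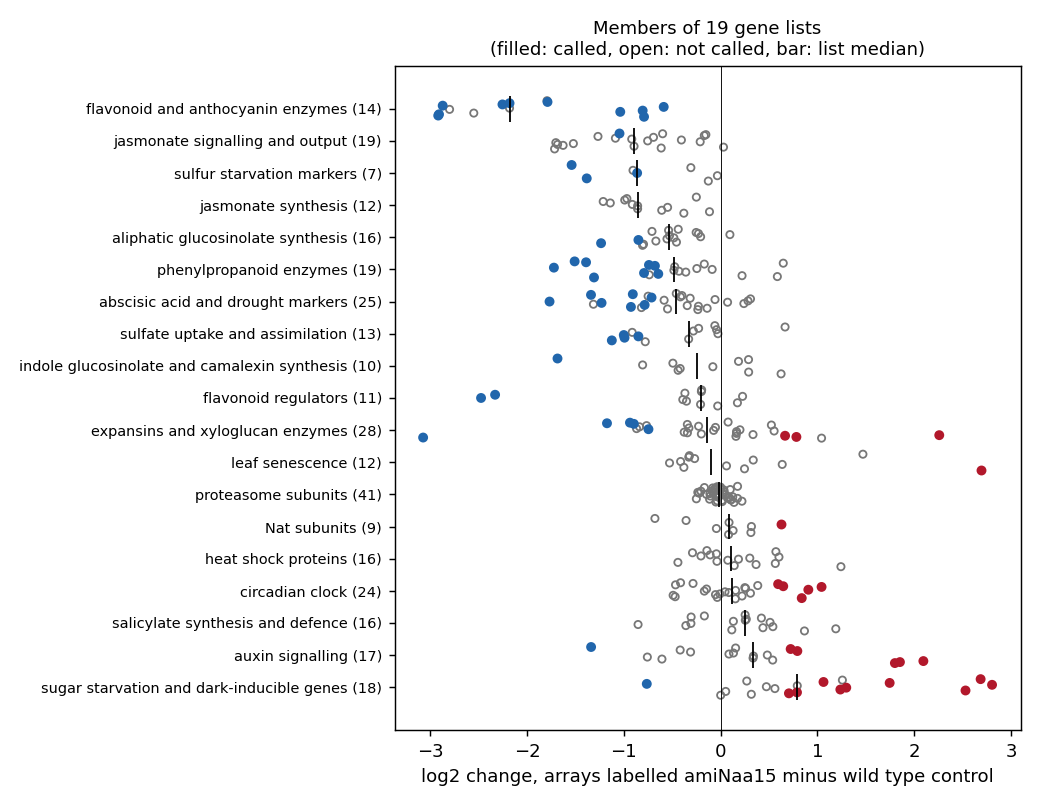
Log2 change on the arrays labelled amiNaa15 minus the wild type control for the members of 19 gene lists (number of genes in brackets); blue and red points are called lower and higher, open points are not called, and bars are list medians. Flavonoid enzymes lie furthest to the left (median -2.18) and sugar starvation genes furthest to the right (median 0.79), while the 41 proteasome subunits stay between -0.25 and 0.22.

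The state of the N terminus can affect how a protein is degraded by the proteasome, and its subunits were therefore included. None of 41 proteasome genes was called by limma, 2 had an unadjusted p below 0.05, and their changes spanned -0.25 to 0.22. None of 16 heat shock protein and factor genes was called either, with a median of 0.11. An unadjusted p below 0.05 was found for 4 of them, against 6627 of all 27827 genes. In the leaf senescence list *DIN1* alone was called higher of 12 genes, against 2.09% of all genes. *SAG12*, a protease gene of old leaves, had 2.98, 4.46, 8.73 and 3.57 on the arrays labelled amiNaa15 and 3.79, 3.40, 3.68 and 2.99 on the control, so that replicate 3 alone was high. That array was also the one nearest to the control in most of the changes above, and the part of leaf age in them was not tested.

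The arrays carried the markers of leaf tissue. The 10 leaf photosynthesis markers had array medians of 10.24 to 10.77 on the arrays labelled amiNaa15 and 10.33 to 10.92 on the control, and limma called none (2 at an unadjusted p below 0.05). The flower markers had array medians of 1.95 to 2.30 and 2.27 to 2.48, the root markers 2.96 to 3.35 and 2.78 to 3.09, and the seed storage markers 3.37 to 3.93 and 3.38 to 3.80, with no gene called by limma and 2, 1 and 0 at an unadjusted p below 0.05. The 8 guard cell markers had a median change of -0.43 and no call by limma (3 at an unadjusted p below 0.05), at array medians of 5.81 to 6.55 on the arrays labelled amiNaa15 and 6.25 to 6.62 on the control. Their median was -0.12 without replicates 1 and 2, and -0.62 without replicates 3 and 4, where 2 were called lower, against 3.80% of all genes. Of 92 mitochondrial genes 86 had higher means, with a median of 0.40, and 8 were called, against 4.67% of all genes. Of 15 plastid genes limma called none, with 1 at an unadjusted p below 0.05. Signals of the arrays labelled amiNaa15 correlated with one another across genes at 0.980 to 0.992, and those of the control at 0.985 to 0.987.

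The amiNaa10 arrays are the most similar group and were compared directly with the arrays labelled amiNaa15. No gene was called in this comparison (smallest limma adjusted p = 0.201), while 1917 genes had an unadjusted p below 0.05, 360 of them with more than 1.5-fold change. Both targeted genes missed the threshold, at -0.85 for *NAA15* and 0.90 for *NAA10*, and their signals were split within the arrays labelled amiNaa15. The group means thus did not separate the arrays labelled amiNaa15 from amiNaa10 at this spread, which does not show that the groups were alike. Without replicates 1 and 2, 7 genes were called between the 2 groups. Among them were *NAA15* and *NAA10*, whose signals had set those arrays apart, so that their 2 calls are no independent test. The others were *MRD1* (2.15), *ACA3* (2.68), *MC9* (1.83), AT5G04170 (1.00) and *PHI-1* (-1.68), with limma adjusted p of 0.037 or less. *ACA3* (AT5G04180) and *MC9* (AT5G04200) are close to AT5G04170 by locus number.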

How the data were processed

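Leaf RNA of 4 groups was measured on 16 Affymetrix AraGene-1_0-st arrays, 4 per group. The authors corrected the fluorescence by RMA, quantile normalized it and summarized probes per gene with version 16 of a custom annotation based on TAIR, whose release is not given in the sources used here. The deposited values are log2 signals without counts or depth, and the precision depends on the number of arrays and on the spread between them. The sorted values of all 16 arrays were identical, hence any shift common to all genes is invisible, and 5969 genes had mean signals below 3. Scanner files and the detection of single probes were not used here, and probes shared by close relatives were not checked.

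Groups and replicate numbers came from the titles. Each gene was fitted with 1 mean per group over the 16 arrays (12 residual degrees of freedom), which share one estimate of the spread, using limma 3.58.1 in R 4.3.3 with Benjamini-Hochberg adjustment over 27827 genes. The gap of a gene is the distance between the nearest arrays of the 2 groups. On simulated data for this comparison 77 of 100 changes of 1 log2 unit and 98 of 100 of 2 units were called, with 2 false calls in the set of 27827 genes. These figures describe the simulated data. They are not a recovery rate for the real arrays labelled amiNaa15, which were split in both targeted genes.

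The members, the 24 gene lists (358 genes, all measured) and the tests were chosen with earlier results of these data known. Named genes are NatA subunits, called list members, some list members that were not called, and the 12 called genes with a symbol and the widest gap in each direction. The uncalled members did not follow a single rule, and *LEA7* and *MYB12*, for example, were not the strongest of their lists. Genes singled out after their values had been seen are marked. Symbols follow RefSeq (TAIR10.1), which held 27241 of the loci, and paired 344 list genes with their symbol. Alternatives were other thresholds, variance models, normalizations, array weights, a replicate block and arrays left out. Permutation tests used scipy 1.17.1 (Python 3.11.15), and plots matplotlib 3.10.9.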

Additional observations from a re-analysis of the deposited data

Results flagged for a closer look

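Dixon's test at its 95% critical value was applied to 218 sets of 4 signals (109 of the named genes in both groups). Single arrays stood apart from the other 3 of their group in 11 of these sets. Chance gives about 1 in 20 such sets. On the arrays labelled amiNaa15, replicate 3 was high for *C4H* (8.77, others 8.23 to 8.32), *SDI1* (5.78, others 4.63 to 4.76) and *EXPA3* (7.18, others 6.54 to 6.59), and replicate 1 was low for *PRR3* (4.33, others 5.29 to 5.36). On the wild type control arrays, replicate 2 was low for AT4G14090 (8.04, others 9.17 to 9.35), *TT19* (7.48, others 8.92 to 9.07) and *ERD10* (9.28, others 9.70 to 9.75). Control replicate 1 was high for *EXPA3* (8.03, others 7.50 to 7.57) and low for *XTH25* (4.08, others 5.35 to 5.40). Control replicate 3 was high for *NAA10* (6.88, others 6.58 to 6.63) and *DIN1* (8.02, others 6.95 to 7.09).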

How the results depend on the processing

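Leaving out replicates 1 and 2 labelled amiNaa15 left 108 called genes (49 lower, 59 higher), all of them shared, turned the *NAA10* change to 0.21 and called *NAA15* at -1.22 (the 2 genes whose signals set these arrays apart). It also turned the differences of *PR1* (-0.055) and AT5G20560 (-0.24), which were not called, and gave 7 genes against amiNaa10. Leaving out replicates 3 and 4 gave 2049 called genes (991 higher), 2045 shared (1056 lower, 989 higher), *NAA15* at 0.51, *NAA10* called at -1.56, and 2 genes against amiNaa10. Leaving out 1 of the 8 arrays gave 663 to 1944 called genes (359 to 1036 lower, 304 to 908 higher) and 649 to 1877 shared ones (352 to 1011 lower, 297 to 866 higher), with *NAA10* between -0.98 and -0.37 and *NAA15* between -0.67 and -0.04. An unadjusted p gave 2177 calls (1199 lower, 978 higher), and 360 against amiNaa10. No fold minimum gave 2098 calls (1099 higher), 1845 shared (952 higher). A 2-fold minimum gave 440 (261 lower, 179 higher), 379 shared (237 lower, 142 higher). Limma's treat gave 23 (9 lower, 14 higher), all shared. The causes of these shifts, beyond the stricter or looser rule and the number of arrays, were not tested.

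Over all genes, deviations of same-numbered arrays correlated at -0.13, 0.07, 0.26 and 0.04, and 1 of 4 correlated best with its own number. Replicate numbers thus did not pair the arrays over the genes as a whole. In single genes such as *VSP1* and *AOS*, replicate 3 was the highest array of both groups, whereas in *MPK19* it was not. Pairing gene by gene was not tested. The replicate block gave 1381 calls, 1121 of them shared. It left 103 of the 107 named genes checked on the same side of the threshold and added 4 to the calls. Against amiNaa10 it called *RGLG3* (1.29) and AT4G18440 (1.14). No moderation, 2 groups only, fewer low genes, cyclic loess, median centring and array weights kept every count within 1.5 times, although no moderation ended the call of 14 of 107 named genes, the fit on 2 groups of 10, and cyclic loess and array weights of 1 each. Signals near 3 and below leave little room for a fall.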

Other observations

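A pair of neighbouring loci was singled out after the values of all arrays had been seen. AT5G20550 had log2 signals of 6.27 and 6.25 on replicates 1 and 2 labelled amiNaa15, against 2.17 and 1.76 on replicates 3 and 4. The amiNaa10 arrays had 2.17, 2.05, 2.21 and 2.12, and the wild type control had 1.58, 2.31, 1.81 and 1.87. The signal was thus high on the same 2 arrays that had low *NAA10* and on none of the amiNaa10 arrays. AT5G20560 had 4.64, 4.47, 3.05 and 3.22 on the arrays labelled amiNaa15, 3.26, 3.24, 3.44 and 3.27 on the amiNaa10 arrays, and 3.48, 3.34, 3.16 and 3.55 on the control. Over all 4 arrays neither locus was called against the control (2.22 and 0.46, limma adjusted p = 0.093 and 0.325). These 2 loci were the genes called between the arrays labelled amiNaa15 and amiNaa10 when replicates 3 and 4 were left out (4.12 and 1.25, limma adjusted p = 1.05e-07 and 0.00295).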
